A study of Mus musculus with 59 samples.

Results

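Sequencing libraries of 2 kinds, total RNA and small RNA, were made from the mouse tissue labelled VsWAT, and the 12 libraries compared here are all of its total RNA and small RNA libraries labelled as input, out of 59 libraries in the series. They comprise 6 total RNA libraries, 3 from a high-fat and 3 from a low-fat diet, and 6 small RNA libraries, 3 from a high-fat and 3 from a low-fat diet. The comparison asks which RNAs take a larger or smaller share of each kind of library in the same tissue. The 12 libraries were chosen by their labels alone and no measured value entered the choice.

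All 12 libraries come from mice with the alleles FVB.129P2-Cyp3a13tm1Ahs, a knockout of Cyp3a13, and Del(5Cyp3a57-Cyp3a59)1Ahs, a deletion that runs from Cyp3a57 to Cyp3a59. The strain also has the transgene Tg(APOE-CYP3A4)A1Ahs, human CYP3A4 joined to APOE sequences, so the total RNA and small RNA groups share every allele. The series' design text gives male mice of 12 weeks after 2 weeks on either diet and names liver, plasma and kidney. It does not name VsWAT, and the labels neither spell the abbreviation out nor tie libraries to single animals. The same Diagenode CATS small RNA kit is named for the libraries of either kind, and how total and small RNA were separated is not given in the sources used here.

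Cells hold several families of short RNA that never code for protein. Small nucleolar RNAs guide the chemical modification of ribosomal and spliceosomal RNA, transfer RNAs carry amino acids to the ribosome, 7SK RNA holds back transcription elongation, Y RNAs bind the Ro protein, and RNase P and RNase MRP process tRNA and rRNA precursors. MicroRNAs are cut from hairpin precursors and guide the silencing of messenger RNAs, which they find mainly through the seed at their bases 2 to 8. White adipose tissue is built of fat-filled adipocytes together with vessels, fibroblasts, macrophages and, in visceral depots, a mesothelial cover.

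For the microRNAs on which the results turn, the mature sequences are shown first, because members with the same seed can be compared across library kinds. They are credited to RefSeq on GRCm38.p6, run 5′ to 3′, and have the seed in capitals. The first 4 share the let-7 seed, the next 3 the miR-148 seed and the next 2 the miR-10 seed.
mmu-let-7c-5p: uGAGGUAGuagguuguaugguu
mmu-let-7f-5p: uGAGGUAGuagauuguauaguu
mmu-let-7g-5p: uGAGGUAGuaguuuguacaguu
mmu-miR-98-5p: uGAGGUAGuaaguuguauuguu
mmu-miR-148a-3p: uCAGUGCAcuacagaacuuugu
mmu-miR-148b-3p: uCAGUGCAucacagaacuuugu
mmu-miR-152-3p: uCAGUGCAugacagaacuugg
mmu-miR-10a-5p: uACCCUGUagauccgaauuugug
mmu-miR-10b-5p: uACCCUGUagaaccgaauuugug
mmu-miR-484: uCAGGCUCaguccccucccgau
mmu-miR-423-5p: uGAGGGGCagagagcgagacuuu
mmu-miR-423-3p: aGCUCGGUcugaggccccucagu

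On GRCm38.p6 the miR-484 sequence lies at chr16:14159630-14159651 on the plus strand and both miR-423 arms lie within chr11:77078086-77078144 on the minus strand. Mirlet7c-1 is read at chr16:77599672-77599693, Mirlet7f-2 at chrX:151912353-151912374, Mirlet7g at chr9:106178846-106178867 and Mir98 at chrX:151913229-151913250, all on the plus strand. RefSeq places Mirlet7f-2 and Mir98 inside Huwe1, Mirlet7g inside Wdr82 and Mir423 inside Nsrp1. A mature sequence was found for 57 of the 65 microRNA genes tested.

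The total RNA libraries held 2556411 to 7940309 counts and detected 19176 to 22857 features, and the small RNA libraries held 881578 to 2220123 counts and detected 16813 to 19832 features. Adipocyte markers were present in every library, at a summed 13469 to 21656 CPM (counts scaled to library size) in total RNA and 11067 to 13221 CPM in small RNA, while 4 epididymal markers summed to at most 0.229 CPM in total RNA and 1.13 CPM in small RNA. Xist, the RNA that coats the inactive X chromosome of females, had 2769 to 8236 counts per total RNA library and 479 to 1273 per small RNA library, and 4 Y-linked genes together had 0 to 3 counts in any of the 12, against the design text's male mice. The knocked-out Cyp3a13 had 0 to 5 counts per total RNA library and 0 to 8 per small RNA library. Over all libraries of a kind Cyp3a57 had 4 counts in total RNA and 5 in small RNA, and Cyp3a59 had 2 and 3, so counts were too few to check either allele. Total RNA high-fat 3, low-fat 1 and low-fat 3 stood apart from the other 3 total RNA libraries. In them CT010467.1, which RefSeq does not class, took 2.05% to 3.26% of counts, against 0.147% to 0.291% in the others, and Lars2, Gm15564 and Mir6236 moved with it. For several results that rest on these 3 libraries, values without them are given as well.

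Short and structured RNAs took a small share of the total RNA libraries and a far larger share of the small RNA libraries, while ribosomal and messenger RNAs of mitochondria did the reverse. Shares were compared as percent of a library's counts over 17 RNA classes with a two-sided exact permutation test that exchanged labels within each diet, which can give no p below 0.005. At that smallest p, 0.00654 after adjustment, 13 classes differed, and none of these 13 overlapped between the 6 total RNA and 6 small RNA libraries. Without overlap any pairing goes the same way, so the 6 pairs of libraries with the same diet and number add no support.

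Nuclear tRNA made up 0.0909 ± 0.042% of counts in total RNA and 4.30 ± 1.28% in small RNA (SD, n = 6 each), 47.3 times more in small RNA. MicroRNA genes made up 0.0217 ± 0.00791% in total RNA and 1.62 ± 0.189% in small RNA. This was the widest gap of any class, 74.9 times, but the single gene Mir6236 held 33.8% of the class in total RNA and 82.1% of it in small RNA. C/D box small nucleolar RNAs, which guide methylation, made up 0.118 ± 0.0255% in total RNA and 1.74 ± 0.310% in small RNA. H/ACA box small nucleolar RNAs, which guide pseudouridylation, made up 0.0459 ± 0.00948% in total RNA and 0.325 ± 0.0526% in small RNA. The gap was thus wider for the C/D box class (14.7 times) than for the H/ACA box class (7.07 times), a difference between the classes that was not tested. The class of 7SK, RNase P, RNase MRP, vault and Y RNA made up 0.258 ± 0.0763% in total RNA and 2.20 ± 0.199% in small RNA.

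**Figure D1:**
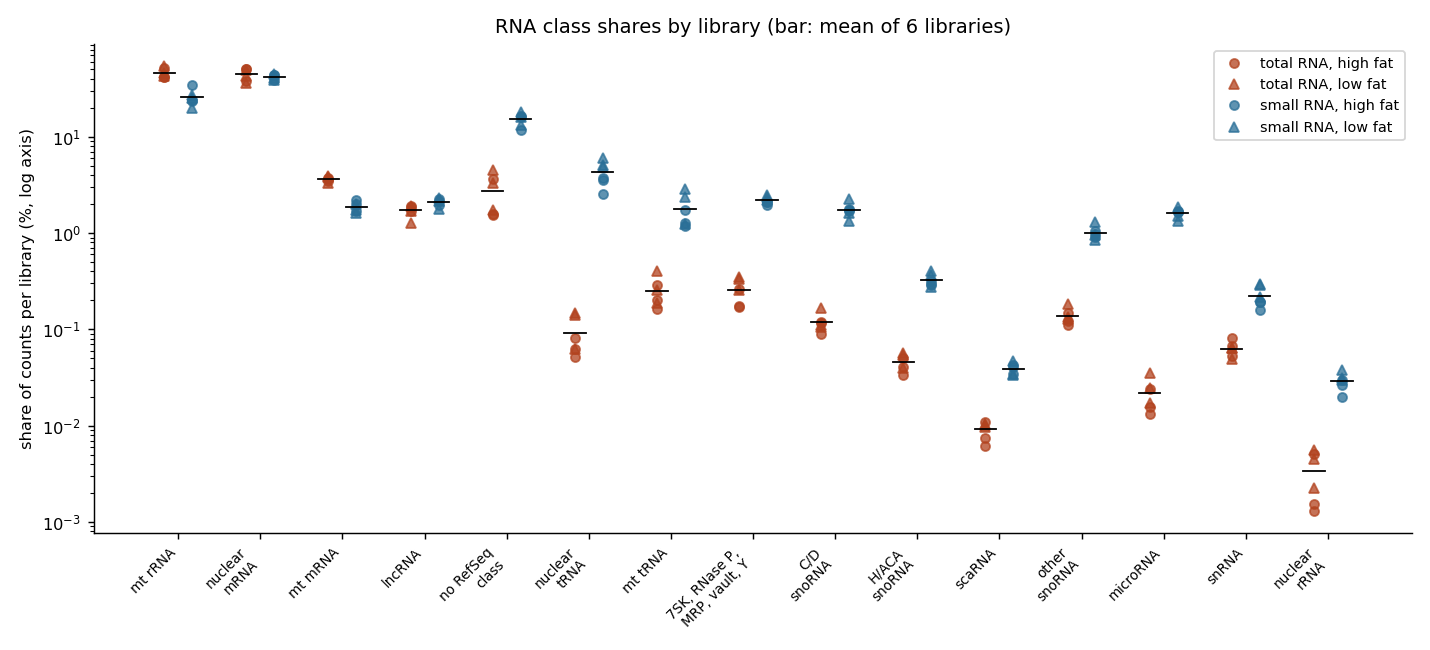
Share of counts per library (%, log axis) for 15 RNA classes in 6 total RNA libraries (left of each pair) and 6 small RNA libraries (right), with circles for high-fat and triangles for low-fat libraries and a bar at the mean of 6. Mitochondrial rRNA lies higher in total RNA (46.3% against 25.6%), nuclear mRNA overlaps, and tRNA, small nucleolar RNA and microRNA classes lie lower in total RNA with no overlap.

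Mitochondrial rRNA, transcribed from the organelle's own genome, made up 46.3 ± 5.58% of counts in total RNA and 25.6 ± 4.78% in small RNA, and nuclear mRNA was the larger class in the 3 total RNA libraries that did not stand apart. Mitochondrial mRNA made up 3.64 ± 0.242% in total RNA and 1.87 ± 0.223% in small RNA, and mitochondrial tRNA 0.249 ± 0.0885% in total RNA and 1.78 ± 0.700% in small RNA. Long and short transcripts of the same small genome therefore went in opposite directions between the library kinds. Features with no RefSeq class made up 2.72 ± 1.29% in total RNA and 15.2 ± 2.35% in small RNA, and CT010467.1 alone was 52.0% of that class in total RNA and 83.7% in small RNA.

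Nuclear mRNA, by contrast, took similar and overlapping shares, 44.5 ± 6.44% in total RNA and 41.8 ± 2.70% in small RNA (adjusted exact permutation p = 0.355). Without the 3 total RNA libraries that stood apart, its share was 8.23 points higher in total RNA (adjusted exact permutation p = 0.0304). Taken over counts without mitochondrial genes it was 29.9 points higher (adjusted exact permutation p = 0.00636). The single gene Lars2 was 12.4% of the nuclear mRNA class in small RNA. It took 5.18% of all counts there, against 0.153% to 1.98% in total RNA libraries. Long non-coding RNA was lower in total RNA by a small margin, 1.73 ± 0.239% against 2.09 ± 0.201% (adjusted exact permutation p = 0.0227). The margin missed the threshold without the same 3 libraries and reversed, to 0.509 points higher in total RNA, when mitochondrial genes were left out of the total. Malat1 was the largest of these RNAs in total RNA, at 54.2% of the class, and Gm15564 the largest in small RNA, at 51.4%.

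Feature by feature, 5685 of 11482 tested features (49.5%) differed between the library kinds at an adjusted p under 0.05 in edgeR's quasi-likelihood test with Benjamini-Hochberg adjustment. Of the tested features 2761 (24.0%) were higher in total RNA and 2924 (25.5%) lower, and for 23.9% the 6 libraries of one kind did not overlap the 6 of the other. Levels below are CPM after TMM scaling, a scaling that assumes most features do not change. A feature was tested where at least 3 libraries reached a filter level of 4.19 CPM. A feature that did so in one kind of library only was tested through that kind alone, which favours a difference in that direction. Not all of them were called. Of 505 nuclear mRNAs that did so only in total RNA 142 were higher. Of 750 that did so only in small RNA 523 were lower. The levels of such features are given as a description, with no test. Under plain library totals 2930 features were higher and 1918 lower in total RNA, since the median feature then shifted by 0.16 on the log2 scale.

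All 6 tested members of the structured class were lower in total RNA, each without overlap, and all 6 reached the filter level in total RNA as well as in small RNA. Rn7sk, the 7SK RNA that keeps the elongation kinase P-TEFb inactive, had 774 CPM in the lowest, 1222.5 in the median and 2349 in the highest total RNA library, against 5715, 6891 and 8303 CPM in small RNA libraries. This was the smallest difference of the class (log2 −2.46 ± 0.20 SE, 5.49 times higher in small RNA, adjusted p = 5.42e-08). Rn7sk gave the largest part of the class's counts in total RNA, 53.9%, and Rny3 the largest part in small RNA, 49.4%.

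Rny3, a Y RNA, had 383, 633 and 1248 CPM in total RNA libraries (lowest, median, highest) and 9269, 11955 and 13900 CPM in small RNA libraries. The other Y RNA tested, Rny1, had 168, 307 and 452 CPM in total RNA and 2109, 2563 and 3515 CPM in small RNA. The Y RNAs thus differed by unequal amounts, 16.5 times for Rny3 (log2 −4.04 ± 0.22 SE, adjusted p = 5.73e-10) and 8.45 times for Rny1 (log2 −3.08 ± 0.20 SE, adjusted p = 4.62e-09), with no test between them. Y RNA genes have many near-identical copies in the genome, so both values are uncertain where reads were shared among copies.

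Rmrp, the RNA of RNase MRP, had 18.8, 32.2 and 107 CPM in total RNA and 752, 973 and 1051 CPM in small RNA, the widest gap of the class (log2 −4.59 ± 0.35 SE, adjusted p = 2.32e-06). Rpph1, the RNA of RNase P, had 4.33, 10.5 and 39.4 CPM in total RNA and 151, 186 and 272 CPM in small RNA (log2 −3.92 ± 0.39 SE, adjusted p = 3e-05). Among the total RNA libraries both of these catalytic RNAs were highest in low-fat 3, and none of the 6 reached the lowest small RNA library. Vaultrc5, the RNA of the vault particle, had 54.2, 76.0 and 191 CPM in total RNA and 737, 900.05 and 1203 CPM in small RNA (log2 −3.41 ± 0.29 SE, adjusted p = 3.25e-06). Terc, Rn7s1 and Rn7s2 were near 0 and were not tested. Terc, the telomerase RNA, had 1 count in all total RNA libraries and 5 in all small RNA libraries. The 7SL RNA genes Rn7s1 and Rn7s2, whose product is part of the signal recognition particle, had 3 and 22 counts in all total RNA libraries and 6 and 31 in all small RNA libraries.

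**Figure D2:**
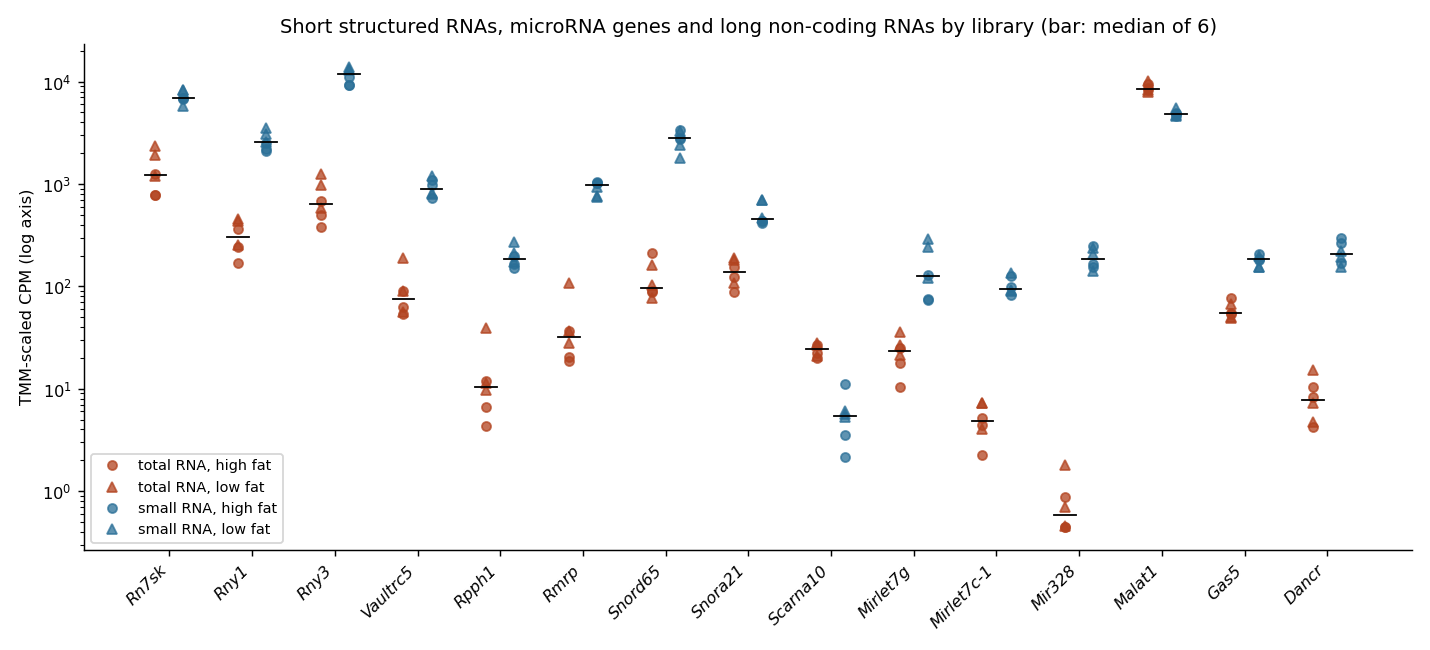
TMM-scaled CPM (log axis) of 6 structured RNAs, 3 small nucleolar or Cajal body RNAs, 3 microRNA genes and 3 long non-coding RNAs, with total RNA libraries left and small RNA libraries right of each pair and a bar at the median of 6. Scarna10 and Malat1 lie higher in total RNA without overlap, and the other 13 lie lower in total RNA without overlap.

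Of 109 C/D box small nucleolar RNAs in the files 42 were tested, and 27 of these reached the filter level in total RNA. All 27 were lower in total RNA, and the other 15 reached it only in small RNA libraries and were tested through those alone. Snord65, with the most counts of the class in small RNA, had 76.1, 96.2 and 209 CPM in total RNA and 1779, 2786.5 and 3342 CPM in small RNA (log2 −4.50 ± 0.29 SE, adjusted p = 6.12e-08). Snord23, one of those 15, had 15 counts over all total RNA libraries and 919 over all small RNA libraries, a pooled ratio of 218 times (95% exact interval 132 to 392, counting error only). Snord32a, hosted by a ribosomal protein gene, had 30.0, 51.6 and 99.7 CPM in total RNA and 1629, 2391.5 and 2759 CPM in small RNA (log2 −5.31 ± 0.21 SE, adjusted p = 1.75e-11). In all 3 the highest total RNA library lay far below the lowest small RNA library.

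Of 42 H/ACA box small nucleolar RNAs 19 were tested, and all 13 that reached the filter level in total RNA were lower there. Snora21, which had the most counts of the class in either kind, had 87.7, 140 and 191 CPM in total RNA and 411, 452 and 704 CPM in small RNA, the smallest difference of the class (log2 −1.88 ± 0.17 SE, adjusted p = 4.21e-07). Snora78 was one of the 6 that reached it only in small RNA and were tested through that kind alone. It had 0.176, 0.448 and 2.47 CPM in total RNA and 64.3, 102 and 126 CPM in small RNA.

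Small Cajal body RNAs, which guide the modification of spliceosomal RNA, were the mixed class. Of 9 tested, 4 reached the filter level in total RNA, and of these 3 were lower and Scarna10 was higher, with 19.8, 24.5 and 27.8 CPM in total RNA and 2.13, 5.46 and 11.2 CPM in small RNA (log2 2.13 ± 0.24 SE, 4.39 times, adjusted p = 2.46e-06). Scarna2 had 22.7, 34.3 and 45.3 CPM in total RNA and 95.3, 105 and 120 CPM in small RNA (log2 −1.69 ± 0.11 SE, adjusted p = 3.48e-09). The other 5, Scarna3a among them, reached the filter level only in small RNA and were tested through that kind alone. Among 47 small nuclear RNAs tested 12 reached the filter level in total RNA, and 8 of those were lower. Rnu12, the U12 RNA of the minor spliceosome, had 35.6, 53.9 and 80.6 CPM in total RNA and 189, 307 and 443 CPM in small RNA (log2 −2.53 ± 0.20 SE, adjusted p = 3.11e-07). The other tested member of the spliceosomal RNA list, Rnu5g, stood at a log2 of 0.05 and was not called.

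**Figure D3:**
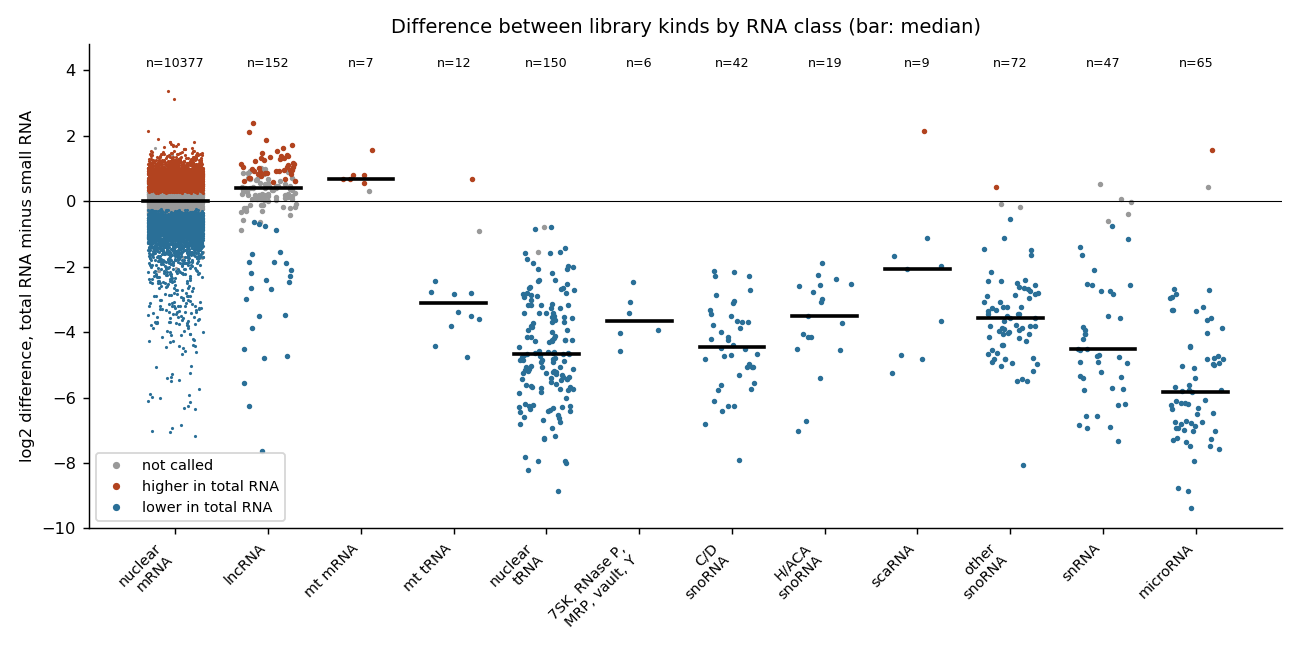
Log2 difference, total RNA minus small RNA, of every tested feature in 12 RNA classes, coloured by call and with a bar at the class median. The medians lie near 0 for nuclear mRNA, above 0 for long non-coding RNA (0.40) and mitochondrial mRNA (0.69), and between −5.82 and −2.06 for the short RNA classes, many of whose members were tested only through small RNA libraries.

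Of 65 microRNA genes tested, 58 reached the filter level only in small RNA libraries and were tested through those alone. Among the other 7, 5 were lower and 1 higher in total RNA. In all, 759 of 1198 microRNA genes had 0 counts in all 12 libraries, among them Mir21a, Mir22 and Mir126a, which are usually abundant in fat or its vessels. A count can hold reads of the mature microRNA or of its precursor. How reads with several matches were counted is not stated, so 0 counts do not show that an RNA was absent.

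Mir484 had 1 count over all total RNA libraries and 332 over all small RNA libraries, a pooled ratio of 1183 (95% exact interval 211 to 46883, counting error only). Mir423 had 3 counts in total RNA and 486 in small RNA, a ratio of 577.5 (196 to 2810), and Mir99b had 3 counts in total RNA and 465 in small RNA, a ratio of 552.5 (188 to 2689). These 3 genes were at or near 0 in every total RNA library and are among the 58, as are Mir328 and Mir23a. Mir328 had 0.445, 0.578 and 1.81 CPM in total RNA and 142, 187 and 245 CPM in small RNA, and Mir23a had 1.05, 2.77 and 14.3 CPM in total RNA and 398, 479 and 1230 CPM in small RNA.

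Of the genes that share the let-7 seed printed above, Mirlet7g, Mirlet7f-2 and Mirlet7c-1 reached the filter level in both kinds. Mirlet7g had 10.4, 23.2 and 35.7 CPM in total RNA and 73.8, 125 and 291 CPM in small RNA (log2 −2.71 ± 0.29 SE, adjusted p = 3.17e-05). Mirlet7f-2 was lower by a log2 of −2.84 ± 0.30 SE and Mirlet7c-1, with 2.25, 4.82 and 7.25 CPM in total RNA and 81.6, 94.8 and 136 CPM in small RNA, by −4.46 ± 0.21 SE (adjusted p = 4.89e-06 and 6.03e-10). So these 3 genes with one seed lay between −4.46 and −2.71, a spread that was not tested. Mir98 and Mirlet7a-2 are among the 58. Mir98 had 1.20, 2.71 and 5.27 CPM in total RNA and 4.47, 15.5 and 43.6 CPM in small RNA, with overlap.

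All 5 genes of the miR-10 and miR-148 seed groups are among the 58 as well. The fitted log2 difference was −3.23 ± 0.83 SE for Mir10a and −3.35 ± 0.63 SE for Mir10b, and −6.76 ± 1.14 SE for Mir148a, −5.82 ± 0.72 SE for Mir148b and −7.47 ± 0.76 SE for Mir152. The last 3 had a median of 0 CPM in total RNA, and fitted values of such genes depend on the prior count. Over the 49 microRNA genes with a RefSeq hairpin, a higher share of G and C in the hairpin went with a more negative difference (Spearman rho −0.489 across genes, n = 49, genes of the same 12 libraries, most of them tested through small RNA alone, no test). Of the 65, 43 lie inside the span of another gene and 22 outside.

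Among the 58 were microRNA genes known from single tissues, tested through small RNA alone. Mir145a, a microRNA of smooth muscle, had 0.433, 0.774 and 2.97 CPM in total RNA and 46.9, 73.3 and 143 CPM in small RNA. Mir122, the microRNA of hepatocytes, had 0.176, 1.57 and 4.97 CPM in total RNA and 12.8, 27.0 and 73.2 CPM in small RNA. Of the 7 others Mir703 was higher in total RNA, with 8.73, 15.6 and 21.0 CPM in total RNA and 3.35, 5.18 and 6.40 CPM in small RNA (log2 1.56 ± 0.23 SE, adjusted p = 4.31e-05), and Mir5099 did not pass the test (log2 0.43 ± 0.29 SE, adjusted p = 0.248) except without small RNA high-fat 3 (0.77, adjusted p = 0.0344). Mir703 lies inside Cfap299 and holds 31.2% G and C, the reads of host and hairpin being indistinguishable without a stated strand. Mir6236, with the most counts of the class, had 9.34, 71.4 and 163 CPM in total RNA and 10910, 14640 and 15880 CPM in small RNA. Its total RNA values split as CT010467.1 did, and what its reads stand for was not tested.

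Of 435 nuclear tRNA genes in the files 150 were tested, and 30 of the 31 that reached the filter level in total RNA were lower there. The other 119 reached it only in small RNA libraries. The class was dominated by tRNA-Arg with the anticodon CCG, whose 3 genes gave 33.4% of tRNA counts in total RNA and 65.0% in small RNA. Its gene chr11.tRNA945-ArgCCG, singled out after its values were seen, had 110, 172 and 522 CPM in total RNA and 17560, 26925 and 40200 CPM in small RNA (log2 −6.81 ± 0.34 SE, adjusted p = 6.03e-10). tRNA-Asp with the anticodon GTC followed in small RNA, with 2.56% of tRNA counts in total RNA and 8.94% in small RNA. By contrast tRNA-Ser with GCT gave 10.6% of tRNA counts in total RNA and 1.11% in small RNA, and tRNA-Leu with CAA 8.25% in total RNA and 0.396% in small RNA.

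The valine gene chr13.tRNA98-ValCAC, one of those 119, had 0.490 CPM in the median total RNA library and 430 CPM in the median small RNA library, with 0 CPM in the lowest and 2.97 in the highest total RNA library against 97.1 and 826 CPM in small RNA. Many tRNA genes are near-identical copies, so counts of single genes depend on how reads with several matches were placed, which is not given in the sources used here. The difference in tRNA share, total RNA minus small RNA, was −3.19 points between the high-fat libraries and −5.23 points between the low-fat libraries. With 3 libraries against 3 an exact permutation test cannot go below 0.1, and the difference between diets was not tested.

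Mitochondrial tRNAs were lower in total RNA for 10 of 12 tested, all of which reached the filter level in both kinds. mt-Tp, the proline tRNA, had 345, 618 and 1309 CPM in total RNA and 2975, 4173.5 and 7628 CPM in small RNA (log2 −2.76 ± 0.28 SE, adjusted p = 4.34e-06), and mt-Tm, the methionine tRNA, had 43.3, 72.5 and 494 CPM in total RNA and 2456, 2735.5 and 4552 CPM in small RNA (log2 −4.75 ± 0.51 SE, adjusted p = 5.04e-05). mt-Te, the glutamate tRNA, went the other way, with 114, 118 and 144 CPM in total RNA and 61.7, 74.6 and 96.0 CPM in small RNA (log2 0.68 ± 0.12 SE, adjusted p = 0.000283). Some small RNA libraries stood far above others for single tRNAs, mt-Tt (threonine) ranging there between 242 and 4263 CPM and mt-Ti (isoleucine) between 429 and 3533 CPM. mt-Ti missed the threshold without the 3 total RNA libraries that stood apart (log2 −3.42, adjusted p = 0.0666).

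The messenger RNAs of mitochondria were higher in total RNA for 6 of 7 tested. mt-Co1, a catalytic subunit of cytochrome c oxidase, had 5482, 6206.5 and 10790 CPM in total RNA and 1917, 2274.5 and 3357 CPM in small RNA, without overlap (log2 1.55 ± 0.19 SE, 2.93 times, adjusted p = 6.94e-06). mt-Cytb of complex III differed by a log2 of 0.81 ± 0.19 SE and mt-Nd5 of complex I by 0.80 ± 0.16 SE (adjusted p = 0.0021 and 0.000815). The mitochondrial rRNAs mt-Rnr1 and mt-Rnr2 were higher in total RNA by 0.72 ± 0.26 and 0.74 ± 0.25 SE (adjusted p = 0.0307 and 0.0231), with overlap. Without the 3 total RNA libraries that stood apart, where they were highest, the log2 differences became 0.26 and 0.37 (adjusted p = 0.412 and 0.256), and 4 of the 7 mRNAs were called. Leaving out any of 6 single libraries also ended the call of mt-Rnr1 (total RNA high-fat 3 or low-fat 3, small RNA high-fat 1, high-fat 2, low-fat 1 or low-fat 2, adjusted p = 0.0501 to 0.091), and any of these except small RNA low-fat 1 did so for mt-Rnr2 (adjusted p = 0.0501 to 0.0662).

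Among long non-coding RNAs, 44 of 152 tested were higher (28.9%) and 26 lower (17.1%) in total RNA (median log2 0.40). Over all features these shares were 24.0% and 25.5%. Of the 80 long non-coding RNAs that reached the filter level in both kinds 25 were higher and 11 lower. Malat1, a nuclear speckle RNA, had 8005, 8493.5 and 10080 CPM in total RNA and 4564, 4791.5 and 5565 CPM in small RNA (log2 0.85 ± 0.14 SE, adjusted p = 0.000129). Neat1, the scaffold of paraspeckles, had 1812, 2673 and 3672 CPM in total RNA and 1108, 1250.0 and 1779 CPM in small RNA (log2 1.05 ± 0.18 SE, adjusted p = 0.000156). Both are long nuclear RNAs, and neither overlapped between kinds. The imprinted Kcnq1ot1 was also higher (log2 0.61 ± 0.09 SE, adjusted p = 3.2e-05) and Meg3 lower (log2 −0.88 ± 0.17 SE, adjusted p = 0.000425), with overlap.

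Long non-coding RNAs that host small nucleolar RNAs went the other way, with 8 of 13 tested lower and 1 higher in total RNA (median log2 −1.87), or 6 lower and 1 higher of the 9 that reached the filter level in both kinds. Dancr, whose span holds Snora26, had 4.21, 7.73 and 15.2 CPM in total RNA and 154, 207 and 297 CPM in small RNA (log2 −4.74 ± 0.31 SE, adjusted p = 5.59e-07). Gas5, a host of many small nucleolar RNAs, had 48.9, 54.5 and 77.0 CPM in total RNA and 154, 183 and 206 CPM in small RNA (log2 −1.62 ± 0.13 SE, adjusted p = 3.56e-08). Snhg17, Snhg1 and Snhg12 were lower by a log2 of −4.52, −2.64 and −2.67, while Snhg14 was higher at 1.35 ± 0.26 SE (adjusted p = 0.000455). Where a host and its guest overlap, a read cannot be placed by these counts alone.

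Messenger RNAs were called in either direction. Of 10377 nuclear mRNAs tested, 2467 (23.8%) were higher and 2421 (23.3%) lower in total RNA, with a median log2 of 0.00, and 21.0% did not overlap between kinds. Of these, 750 reached the filter level only in small RNA and 505 only in total RNA, and among the 8889 that reached it in both kinds 2324 were higher and 1893 lower. Under plain library totals the numbers over all 10377 were 2597 higher and 1423 lower. The 23.8% higher and 23.3% lower are the level to read the mRNA lists below against. The 10 largest rises by the rule for named genes lay between log2 1.38 and 1.76. Of the 10 largest falls by that rule, Gabbr2, Ppp1r14a, Ankrd60, Pnck, Avpi1, Xylb, Ctrb1 and Cela2a reached the filter level only in small RNA. They were tested through that kind alone, so the sizes of rises and falls are not compared.

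Ap3s1, a subunit of the AP-3 adaptor complex of endosomes, had 33.7, 39.1 and 42.8 CPM in total RNA and 4.82, 9.70 and 25.3 CPM in small RNA (log2 1.76 ± 0.27 SE, adjusted p = 0.000122). Selenot, a selenoprotein of the endoplasmic reticulum, had 93.1, 103 and 116 CPM in total RNA and 26.7, 34.0 and 44.6 CPM in small RNA (log2 1.60 ± 0.11 SE, adjusted p = 8.72e-09). Cav2, a coat protein of the caveolae that stud the adipocyte surface, had 555, 616.0 and 782 CPM in total RNA and 177, 240.3 and 260.4 CPM in small RNA (log2 1.46 ± 0.13 SE, adjusted p = 1.3e-07). All 3 were higher in every total RNA library than in any small RNA library. Pus10, a pseudouridine synthase, Zc3h11a, a zinc finger protein of mRNA export, and Txlng, a syntaxin-binding protein, were higher by a log2 of 1.68, 1.67 and 1.60, and Ankef1, Ctdspl2, Gbp9 and Klhl28 by 1.52, 1.44, 1.43 and 1.38.

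Gabbr2, a subunit of the GABA-B receptor, had 0.226, 0.745 and 1.81 CPM in total RNA and 228, 459 and 1109 CPM in small RNA, 29 counts over all total RNA libraries against 4647 over all small RNA libraries (pooled ratio 571, 95% exact interval 397 to 854, counting error only). Ppp1r14a, an inhibitor of myosin phosphatase in smooth muscle, had 1.23, 1.57 and 2.31 CPM in total RNA and 140, 212 and 313 CPM in small RNA. Dnaja4, a DnaJ co-chaperone of heat shock proteins that reached the filter level in both kinds, had 2.64, 4.16 and 10.8 CPM in total RNA and 198, 263 and 311 CPM in small RNA (log2 −5.75 ± 0.27 SE, adjusted p = 9.91e-09). Each of them was lower in every total RNA library than in any small RNA library.

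Hjurp, the chaperone of the centromeric histone, also reached it in both kinds and fell by a log2 of −5.41. RefSeq lists no microRNA, small nucleolar, small nuclear or transfer RNA gene inside the spans of Gabbr2, Ppp1r14a, Ankrd60, Pnck, Hjurp, Avpi1 or Xylb, and 1 microRNA gene, Mir5710, inside Dnaja4. Where in these genes the reads lie was not tested, since the files hold counts per gene. Ctrb1 and Cela2a are pancreatic enzymes and are described with their list below.

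By the length of the gene, calls were spread unevenly. Of 5 equal groups by span, the shortest (320 to 9732 bases) had the most genes lower in total RNA, with 9.92% of genes higher and 32.9% lower, with a median log2 of −0.31. In the fourth group (36760 to 78899 bases) 33.7% were higher and 17.4% lower, with a median of 0.19, and in the longest 29.4% and 16.2%, with 0.15. The span is the distance in the genome with introns, not the length of the messenger RNA.

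**Figure D4:**
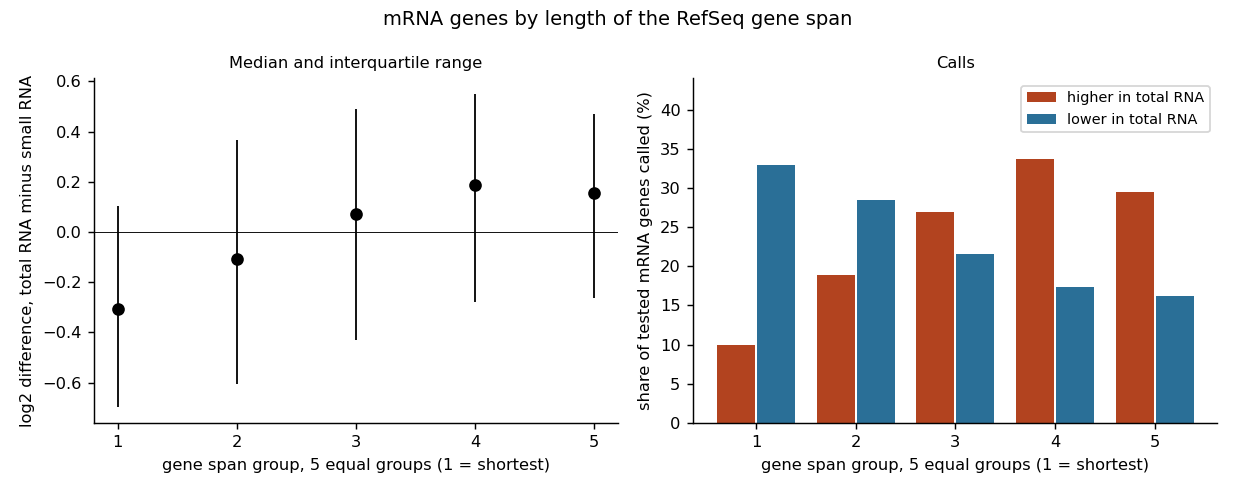
Tested nuclear mRNA genes in 5 equal groups by RefSeq gene span, with the median and interquartile range of the log2 difference, total RNA minus small RNA (left), and the share of genes called higher or lower in total RNA (right, %). The median goes upward over the first 4 groups, −0.31, −0.11, 0.07 and 0.19, and is 0.15 in the longest.

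Messenger RNA genes that hold a microRNA gene in their span comprised 102 higher and 186 lower of 519 (median log2 −0.21). Those that hold a small nucleolar or Cajal body RNA gene comprised 86 higher and 60 lower of 291 (median 0.11). Genes that hold none of these, with 2283 higher and 2183 lower of 9583 (median 0.01), give the level to read both against. No test was run between these sets.

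Genes of cytosolic ribosomal proteins often carry small nucleolar RNAs in their introns. Their transcripts were lower in total RNA for 37 (48.1%) and higher for 3 (3.90%) of 77 tested (median log2 −0.38). Under plain library totals 16 were lower and 3 higher, and 5 were higher under the replicate block and 6 without total RNA low-fat 3. Rpl5, which binds 5S rRNA, had 16.7, 22.7 and 31.8 CPM in total RNA and 406, 482 and 646 CPM in small RNA (log2 −4.43 ± 0.15 SE, adjusted p = 2.95e-12). Rpl6 had 19.5, 22.7 and 32.3 CPM in total RNA and 347, 409 and 543 CPM in small RNA (log2 −4.15 ± 0.15 SE, adjusted p = 3.53e-12). Rpl13, Rpl10 and Rpl7a fell by a log2 of −3.52, −2.74 and −2.59, each without overlap, and RefSeq lists a small nucleolar RNA gene inside all 5. Of the 30 that hold one, 20 were lower and 0 higher (median −0.46), and of the 47 that hold none, 17 were lower and 3 higher (median −0.19), the most negative of these at −1.11.

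By diet, the difference between library kinds was more negative on the high-fat than on the low-fat diet for 75 of 77 ribosomal protein genes (median difference of log2 differences −0.52), and 33 of 77 had an unadjusted interaction p under 0.05, all 33 negative. Over all features 515 of 11482 (4.49%) had such a p, and 0 (0.0%) passed after adjustment in edgeR, against 2 in DESeq2. The shift was not particular to ribosomal protein genes. Of 49 nuclear genes of the respiratory chain 12 had such a p, with a median difference of −0.36. Of single features, Gm17300, which RefSeq does not class, had the smallest p. It had 16.7, 11.9 and 9.95 CPM in high-fat and 38.9, 22.9 and 36.9 CPM in low-fat total RNA libraries, against 665, 688 and 690 CPM in high-fat and 489, 457 and 513 CPM in low-fat small RNA libraries, listed by replicate (interaction log2 −1.82, edgeR adjusted p = 0.0971). Rpl23a followed, at −2.09 (edgeR adjusted p = 0.974).

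Adipocyte genes went in either direction. Of 22 genes of adipocyte identity and hormones 6 were higher and 3 lower in total RNA (median log2 0.09), or 27.3% and 13.6%, against 23.8% and 23.3% over all nuclear mRNA. With same-numbered libraries as a replicate block 10 of the 22 were higher, and 1 rather than 3 was lower without total RNA high-fat 2, high-fat 3 or low-fat 2, or small RNA high-fat 2 or low-fat 3. The fatty acid transporter Cd36 had 3314, 3716.5 and 4040 CPM in total RNA and 1803, 1935 and 2199 CPM in small RNA (log2 0.89 ± 0.12 SE, adjusted p = 1.97e-05). Acvr1c, a receptor of the activin family, Pparg, the master regulator of adipogenesis, Lpl, lipoprotein lipase, and Fabp4, a fatty acid carrier, rose by 1.02, 0.72, 0.61 and 0.53. Fabp4 missed the threshold without the 3 total RNA libraries that stood apart (log2 0.43, adjusted p = 0.0672).

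Adipoq, the gene of adiponectin, had 1090.0, 1315 and 1388 CPM in total RNA and 943, 1059 and 1226 CPM in small RNA, which overlapped (log2 0.26 ± 0.12 SE, adjusted p = 0.0852). Lep, of leptin, had 443, 577 and 904 CPM in total RNA and 285, 482 and 625 CPM in small RNA (log2 0.41 ± 0.20 SE, adjusted p = 0.108). Plin1 of the lipid droplet coat and Cfd of complement factor D stood at a log2 of 0.06 ± 0.11 and 0.11 ± 0.31 SE (adjusted p = 0.656 and 0.800). The lipogenic Scd1, with the most counts of any nuclear mRNA in total RNA (2.78%), differed by 0.64 ± 0.27 SE (adjusted p = 0.0565). Fasn, fatty acid synthase, had 312, 389 and 399 CPM in high-fat and 2582, 2801 and 8577 CPM in low-fat total RNA libraries, against 679, 839 and 684 CPM in high-fat and 4033, 5677 and 10250 CPM in low-fat small RNA libraries, listed by replicate. In every same-numbered pair it was lower in total RNA, and with these pairs as a replicate block its log2 was −0.82 (edgeR adjusted p = 4.51e-08), against −0.76 ± 0.31 SE without (adjusted p = 0.0638). The block also moved Adipoq (0.26, adjusted p = 0.00321), Lep (0.42, adjusted p = 5.92e-05) and Scd1 (0.64, adjusted p = 2.99e-09) past the threshold. So did leaving out 1 library in some cases, for Lep total RNA high-fat 3 (0.56, adjusted p = 0.0187), for Adipoq total RNA low-fat 3 or small RNA low-fat 1 (0.31 and 0.33, adjusted p = 0.0485 and 0.0416) and for Fasn the same libraries (−1.15 and −0.88, adjusted p = 0.000251 and 0.0411). For Scd1 it was total RNA low-fat 1, total RNA low-fat 2 or small RNA low-fat 3 (0.78, 0.74 and 0.93, adjusted p = 0.0271, 0.0327 and 0.00457). Without the 3 total RNA libraries that stood apart, the log2 difference was 0.63 for Lep and −1.15 for Fasn.

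Genes of the lipid droplet and lipolysis were higher for 7 (36.8%) and lower for 2 (10.5%) of 19. The median log2 was −0.14, so that calls and median pointed in different directions. Under the replicate block 5 were lower, and 4 without small RNA low-fat 1. Pde3b, the phosphodiesterase through which insulin restrains lipolysis, had 324, 369 and 417 CPM in total RNA and 121, 177 and 190.3 CPM in small RNA (log2 1.19 ± 0.11 SE, adjusted p = 4.14e-07). Prkar2b, a regulatory subunit of protein kinase A, and Cav1, the main caveolin, rose by 0.94 and 0.70. Npr1, the receptor of atrial natriuretic peptide, and the triglyceride lipase Pnpla2 of the adipocyte list fell by −0.89 and −0.59.

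**Figure D5:**
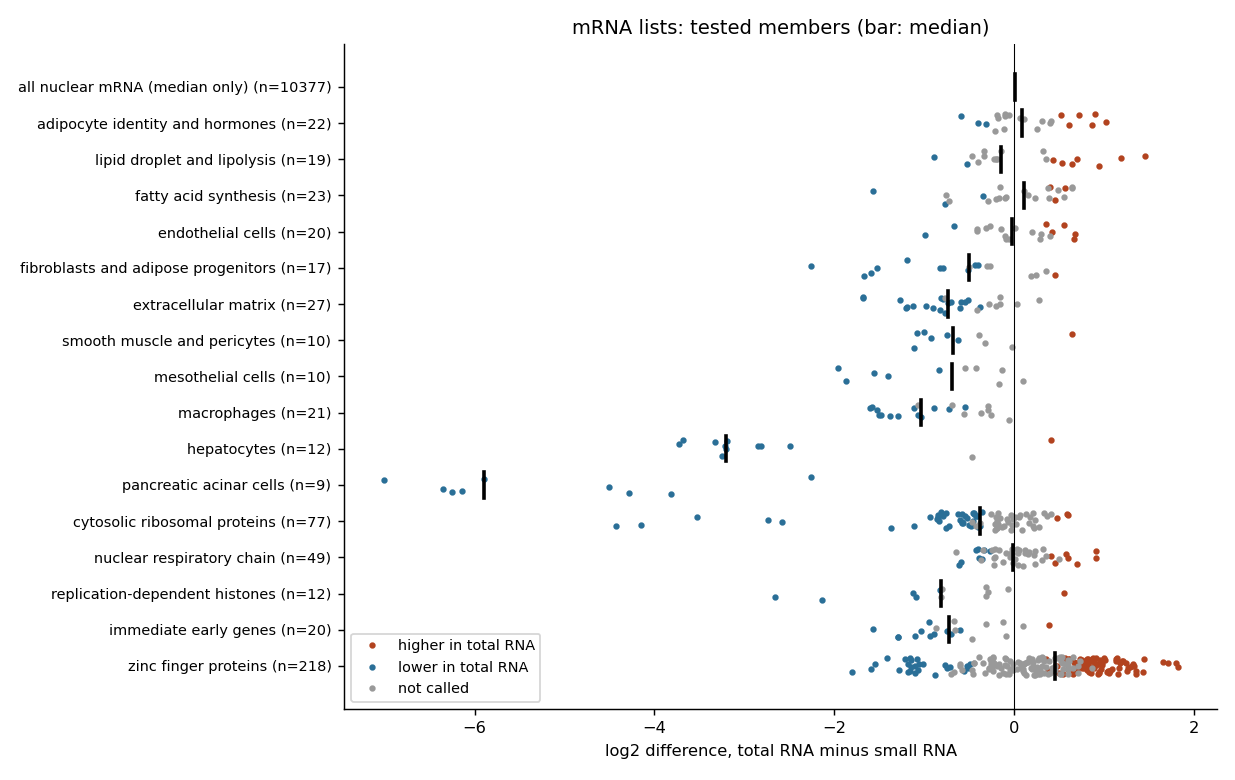
Log2 difference, total RNA minus small RNA, of the tested members of 16 mRNA lists, coloured by call, with a bar at each list's median and, at the top, the median of all nuclear mRNA (0.00). Extracellular matrix (−0.74), macrophage (−1.04) and hepatocyte (−3.20) lists lie lower in total RNA and zinc finger genes (0.45) higher. Of the 9 acinar genes, 8 were tested only through small RNA libraries.

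Genes of the extracellular matrix were lower in total RNA, 19 of 27 (70.4%) with 0 higher (median log2 −0.74), and 14 lower under plain library totals. Fn1, of fibronectin, had 229, 284 and 373 CPM in total RNA and 780.0, 872 and 1254 CPM in small RNA (log2 −1.68 ± 0.17 SE, adjusted p = 6.53e-07). Hspg2, of the basement membrane protein perlecan, fell by −1.68 ± 0.18 SE and Col1a1, of type I collagen, by −1.27 ± 0.18 SE. In the list of fibroblasts and adipose progenitors 10 of 17 were lower (58.8%) and 1 higher (5.88%), with a median of −0.50. Pi16 stood at −2.26 ± 0.36 SE, the complement gene C3 at −1.67 ± 0.14 SE and Clec3b at −1.59 ± 0.12 SE. In bulk tissue, fewer cells of a type and less RNA per cell cannot be told apart. Here the groups compared are different kinds of library from the same tissue, so these values are not read as differences in cells.

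Macrophage genes were lower in total RNA for 13 (61.9%) and higher for 0 of 21 (median log2 −1.04). Their summed level was 810 to 1649 CPM in total RNA and 1702 to 2193 CPM in small RNA. C1qc of the complement component C1q had 19.9, 21.5 and 27.7 CPM in total RNA and 60.99, 62.9 and 78.96 CPM in small RNA (log2 −1.53 ± 0.12 SE, adjusted p = 3.74e-08). Csf1r, the receptor that macrophages need to survive, and Cd74, the invariant chain of antigen presentation, fell by −1.48 ± 0.12 and −1.60 ± 0.14 SE. Every total RNA library was below every small RNA library for these 3 genes.

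Mesothelial genes were lower for 5 and higher for 0 of 10 (median −0.69; Msln, of mesothelin, −1.56 ± 0.23 SE, and Krt19 −1.96 ± 0.33 SE), and those of smooth muscle and pericytes lower for 6 and higher for 1 of 10 (median −0.68; Notch3 −1.11 ± 0.19 SE and Pdgfrb −1.08 ± 0.12 SE), or lower for 3 without small RNA high-fat 3. Endothelial genes were higher for 5 of 20, a share close to the 23.8% of all nuclear mRNA, and lower for 2, or lower for 5 under the replicate block and 4 without total RNA low-fat 3 or without the 3 total RNA libraries that stood apart (median −0.03; Emcn 0.68 ± 0.19 SE).

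Among regulatory genes, those of zinc finger proteins, many of them transcriptional repressors, were higher for 89 (40.8%) and lower for 26 (11.9%) of 218 (median log2 0.45). Of the 145 that reached the filter level in both kinds 61 were higher and 13 lower. Zfp942 reached it only in total RNA and was tested through that kind alone. It had 9.72, 12.4 and 14.7 CPM in total RNA and 1.40, 3.28 and 5.78 CPM in small RNA. Zfp385a fell by −1.80 ± 0.24 SE (adjusted p = 1.97e-05). Immediate early genes were lower for 11 (55.0%) and higher for 1 (5.0%) of 20 (median −0.72). Of the 16 that reached the filter level in both kinds 8 were lower, with Junb at −1.57 ± 0.23 SE and Egr1 at −1.03 ± 0.23 SE. Of 16 clock genes 3 were higher (18.8%) and 6 lower (37.5%), with 3 lower without small RNA low-fat 1. Clock and Nr1d2 rose by 0.84 ± 0.10 and 0.83 ± 0.11 SE while Nr1d1, a repressor of the same loop, fell by −0.83 ± 0.14 SE. Of 70 replication-dependent histone genes, whose mRNAs lack a poly(A) tail, 12 were tested, and of the 7 that reached the filter level in both kinds 3 were lower and 1 was higher.

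Markers of tissues other than fat moved between the kinds as well. Hepatocyte genes were lower in total RNA for 10 and higher for 1 of 12 (median log2 −3.20). Of the 9 that reached the filter level in both kinds 7 were lower and 1 higher. In all, 6 were lower and 0 higher of 13 tested without the 3 total RNA libraries that stood apart. Without small RNA low-fat 1 alone, 4 were lower. Alb, of serum albumin, had 101, 206 and 13.4 CPM in high-fat and 84.1, 20.8 and 59.8 CPM in low-fat total RNA libraries, against 632, 881 and 123 CPM in high-fat and 1137, 140 and 326 CPM in low-fat small RNA libraries, listed by replicate (log2 −2.81 ± 0.83 SE, adjusted p = 0.0212, and 0.0732 without those 3). Without total RNA high-fat 1 or small RNA low-fat 1 its adjusted p was 0.0507 and 0.0559. The libraries with little albumin mRNA in one kind, high-fat 3 and low-fat 2, were also the lowest in the other. Apoa1 and Ahsg, further liver secretory genes, fell by −3.69 ± 0.79 and −3.73 ± 0.75 SE.

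Of 9 pancreatic acinar genes tested, 8 reached the filter level only in small RNA and were tested through that kind alone. Among those 8 were Ctrb1, the elastase gene Cela2a and the carboxypeptidase gene Cpa1. The summed level of the 9 was 5.43 to 47.6 CPM in total RNA and 27.9 to 1648 CPM in small RNA, with high-fat 3 highest in either kind. Ctrb1, of chymotrypsinogen, had 0, 0.150 and 5.19 CPM in high-fat and 0, 0.529 and 1.15 CPM in low-fat total RNA libraries, against 13.3, 6.71 and 443 CPM in high-fat and 6.26, 74.0 and 17.2 CPM in low-fat small RNA libraries, listed by replicate. The part of such RNA in the difference of other genes was not tested.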

How the data were processed

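The deposited files hold raw read counts per feature. STAR, HTSeq and the build mm10 are named in the submitters' processing notes. Their versions, the annotation, the strand setting and the treatment of multiply matching reads were not stated in what was used here. Tissue was flash frozen and extracted with NucleoZOL, per the labels' protocols.

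The 12 files list 55273 features, 31664 of them with a count. Symbols matched for 54723, and classes and spans come from RefSeq on GRCm38.p6. Features were tested with edgeR 4.0.16 (R 4.3.3, limma 3.58.1; TMM, filterByExpr with minimum count 10 and total 15, 4 groups of kind and diet, quasi-likelihood F test), as total minus small RNA averaged over diets, with Benjamini-Hochberg adjustment over 11482 features. SE is the size of the log2 difference over the square root of F. "Reached the filter level" means 4.19 CPM in at least 3 libraries of a kind. Class shares were compared over 400 exact permutations and, by pair, over 64 sign flips. The fit was also run on simulated data in which few features changed, evenly up and down. The data here differ from that setting, so the run cannot vouch for the calls. Since libraries are not tied to animals, every p reflects variation among these libraries, possibly technical. Intervals cover counting error only.

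Libraries of the same diet and number deviated together: r was 0.176 to 0.378 in all 6 pairs, each library correlating best with its own number. The numbers therefore pair the libraries. The main fit and the permutations of class shares leave this pairing out, and only the replicate block and the sign flips use it.

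The members, lists and tests were chosen with earlier results of these data known. Named genes are, among features with adjusted p under 0.05, no overlap, at least the median level and no predicted-gene name, the 10 largest rises and falls of mRNA and 4 each way per other class; up to 4 members per list with the smallest p; 4 with the smallest interaction p; and 25 by name. Snora21, Snord65, Mir10a, Mir10b, Mir23a, Mir98, Mir148a, Mir148b, Mir152, Mir703, Mir5099, Mir6236, Rpl13, Pi16, Pnpla2, Npr1, Emcn, Snhg14, Alb, mt-Ti, CT010467.1, Lars2, Gm15564 and Gm23935 were chosen after their values were seen. Gene span replaced a planned split by coding length, as transcript lengths were not used here. Alternatives were RLE or no scaling factors, other filters, DESeq2 1.42.0, thinning to the shallowest library, mRNA alone, each library left out, each diet alone, the replicate block and, added after seeing the data, fits without 3 total RNA libraries or without 6 features.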

Additional observations from a re-analysis of the deposited data

Results flagged for a closer look

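Plekha8, a lipid transfer protein gene of the Golgi, went opposite ways on the 2 diets. Its log2 difference, total RNA minus small RNA, was 1.44, 0.97 and 1.46 in high-fat pairs and −0.24, −0.69 and −0.23 in low-fat pairs, and the mean differed by 1.68 between diets. By edgeR's quasi-likelihood test of the interaction the difference was 1.73 on the log2 scale with an adjusted p of 1, so it does not pass over all features tested. Levels were low, between 7.75 and 15.6 CPM in total RNA and between 4.21 and 14.2 CPM in small RNA. Averaged over diets Plekha8 was higher in total RNA by 0.50 on the log2 scale (edgeR adjusted p = 0.0469), and the call was lost with any of 9 single libraries left out (adjusted p = 0.0544 to 0.142). Without the 3 total RNA libraries that stood apart, this log2 difference was 0.28.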

How the results depend on the processing

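Under plain library totals in place of TMM, 1918 features and 1423 nuclear mRNAs were lower in total RNA. In the low-fat libraries alone 2433 features were called (926 higher, 1507 lower) and 1946 nuclear mRNAs (865 and 1081), against 4067 features (1925 and 2142) and 3526 nuclear mRNAs (1762 and 1764) in the high-fat libraries alone. After thinning to the shallowest library 3511 features (1664 and 1847) and 3081 nuclear mRNAs (1586 and 1495) were called. The cause of these differences was not tested. With each library left out in turn, 2511 to 2875 features were higher and 2642 to 3072 lower. The interaction with diet gave 9 calls without the filter, 2 in DESeq2 and 0 to 2 with 1 library left out. The direction of Cfd turned in the high-fat libraries alone (−0.049), without the 3 total RNA libraries (−0.036) and with total RNA low-fat 1 or small RNA low-fat 3 left out, its values with 1 library left out being −0.13 to 0.37, that of Mir5099 in high-fat libraries alone (−0.13), those of Gm23935 (0.77), Rpl23a (0.19) and Plekha8 (−0.38) in low-fat libraries alone, and that of Plekha8 after thinning (−0.031). The cause was not tested. Of class shares, over counts without mitochondrial genes long non-coding RNA differed by 0.509 points, nuclear mRNA by 29.9, pseudogenes by 0.0475 and the remaining class by −0.00114. Without the 3 total RNA libraries these were −0.197, 8.23, 0.00625 and −0.0021, and pseudogenes stood at 0.000183 without their largest feature. Nuclear tRNA differed by −3.19 points on high-fat and −5.23 on low-fat, and small nuclear RNA by −0.114 and −0.208. The replicate block moved Rpl23a (−0.90, adjusted p = 0.160) and Plekha8 (0.27, adjusted p = 0.385) below the threshold and Adipoq, Lep, Scd1 and Fasn past it, and it changed no other call of a named gene. Of all values of named genes under alternatives 3407 kept direction and side of the threshold, 75 lost the call, 35 gained it and 9 turned direction.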

Other observations

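Gm23935, which RefSeq does not class, ranged more widely among the small RNA than among the total RNA libraries. It had 1813, 1045 and 1744 CPM in high-fat and 2218, 2760 and 3784 CPM in low-fat total RNA libraries, against 11180, 13050 and 19890 CPM in high-fat and 465, 4166 and 410.3 CPM in low-fat small RNA libraries, listed by replicate. The interaction log2 was −4.06 with an unadjusted p of 0.0066 in edgeR, and it does not pass after adjustment. Averaged over diets the log2 difference was −1.23 (edgeR adjusted p = 0.101), and −1.45 with an adjusted p of 0.0464 or 0.0396 without small RNA low-fat 1 or low-fat 3.

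Over 266 short RNA genes a longer gene went with a less negative difference (Spearman rho 0.353, all values from the same 12 libraries). Within classes rho was 0.041 for 65 microRNA genes, 0.144 for 42 C/D box and 0.263 for 19 H/ACA box small nucleolar RNAs. It was 0.249 for 72 other small nucleolar RNAs, 0.637 for 46 small nuclear RNAs and 0.429 for 6 structured RNAs. For 9 small Cajal body RNAs it was −0.092 and for 7 nuclear rRNA genes −0.668. The pooled value therefore holds differences between classes. Many of these genes reached the filter level only in small RNA libraries, and no test was run.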
